A study of Mus musculus with 6 samples.

Results

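The genes of this report encode enzymes and receptors of prostaglandins and leukotrienes, the lipid mediators made from arachidonic acid. They were chosen by name, as 10 genes: the prostaglandin D2 receptor *Ptgdr2*, the prostacyclin receptor *Ptgir*, the prostaglandin E2 receptors *Ptger2* and *Ptger4*, the leukotriene B4 receptor *Ltb4r1*, the enzymes *Ptgs1*, *Ptgs2*, *Hpgds* and *Alox5*, and the 5-lipoxygenase partner *Alox5ap*. Of these, 9 were among the 16381 genes listed with a value. *Ptgdr2* (ENSMUSG00000034117) was not among them and was not analysed here. Every listed gene had at least 10 estimated counts over the 6 samples. The cells were group 2 innate lymphoid cells (ILC2s) activated in vivo (aILC2s), from wild-type BALB/cJ mice described as female and 6 to 8 weeks old. The mice received 0.5 µg of IL-33 intranasally per day for 3 days, and CD45+ ST2+ CD127+ cells negative for lineage markers (among them CD11b, CD11c, Gr-1 and FcεRIα, which mark myeloid cells, granulocytes and mast cells) were sorted from the lung. Cultures were kept for 24 h with 250 µM melatonin (3 samples) or with its solvent DMSO as vehicle (3 samples), and both groups shared the IL-33 challenge. The comparison asked how expression in aILC2s differed with melatonin. The labels do not say whether the samples of a group came from separate mice, so the p-values measure the spread between these samples, which may be partly technical. By their sex-linked transcripts, given below, melatonin replicate 1 and melatonin replicates 2 and 3 did not come from the same mice.

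Cyclooxygenases turn arachidonic acid into prostaglandin H2, from which terminal synthases make prostaglandins D2, E2 and I2 (prostacyclin). In the other branch, 5-lipoxygenase, aided by the membrane protein FLAP, makes leukotriene A4, which becomes leukotriene B4 or the cysteinyl leukotrienes. In ILC2s, prostaglandin D2 and cysteinyl leukotrienes are known as activators of type 2 cytokine production, while prostacyclin and prostaglandin E2, through receptors that raise cyclic AMP, are known to restrain it.

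Values are normalised counts, in which the authors divided the estimated counts of a gene by a size factor of the sample. Samples held between 17056266 and 20511709 estimated counts. All 14 ILC2 markers examined were listed, and their summed level was between 206540 and 220926 in vehicle and between 141650 and 161979 in melatonin, with 8 lower, 2 higher and *Gata3* at a mean of 19365 and 20469. Markers of other cells moved with the groups. The 4 NK cell markers summed to between 5802 and 7136 in vehicle and to between 56.0 and 194 in melatonin, mostly from *Gzma*. The 4 listed T cell markers of 6 summed to between 4646 and 5050 and to between 1736 and 2576, mostly from *Trbc2*, with *Cd4* and *Cd8a* not listed. The summed level of 8 listed macrophage and dendritic cell markers of 9 was between 1408 and 1613 in vehicle and between 364 and 821 in melatonin, with *Lyz2* the highest, *Marco* not listed and *C1qa* and *C1qb* at 0 in melatonin. The 6 listed mast cell and basophil markers of 9 summed to between 2799 and 3091 in vehicle and to between 2695 and 6102 in melatonin, where *Kit* was highest, at 5935 in melatonin replicate 1 and 2593 and 2129 in replicates 2 and 3, while *Tpsab1* fell, and *Fcer1a*, *Ms4a2* and *Mcpt4* were not listed. The eosinophil marker *Ccr3* had a mean of 303 in vehicle and 13.5 in melatonin, with *Prg2* and *Epx* not listed. The 3 listed neutrophil markers of 6 summed to between 19.7 and 78.4 in vehicle and to between 1.87 and 4.37 in melatonin. Of these, *S100a8* and *Cxcr2* were called lower, and *Retnlg*, *Ly6g* and *Camp* were not listed. The 5 epithelial markers summed to between 893 and 2229 in vehicle and to between 1039 and 1237 in melatonin, where *Epcam* rose from a mean of 667 to 1097 and *Sftpc* and *Scgb1a1* fell from 222 and 387 to 5.005 and 0.335, with *Scgb1a1* reaching 1045 in vehicle replicate 3. The endothelial marker *Pecam1* fell from 1040 to 357, with *Cdh5* and *Cldn5* not listed. The sort was also set to remove T cells and NK cells, by lineage markers that included CD3ε, T cell receptor chains and CD335. The CD335 gene *Ncr1* was at a mean of 106 in vehicle and 0.335 in melatonin, and the CD3ε gene *Cd3e* at 210 and 65.45. In these bulk samples, fewer cells of a type and less RNA per cell cannot be told apart, and the part of these markers in the results was not tested. Sex-linked transcripts differed between samples. The Y-linked *Ddx3y* was between 746 and 1071 in the vehicle samples and melatonin replicate 1 and at 0 in melatonin replicates 2 and 3, where *Xist* was at 579 and 1092. These Y-linked transcripts go against the description of all mice as female. The sex shown by the transcripts partly followed the treatment, so the 2 cannot be fully told apart. All 9 listed genes lie on autosomes, but a part of sex in their values was not tested. Results are given below also for the 4 libraries with Y-linked transcripts alone, where melatonin replicate 1 is the only treated sample. The numbers in the column names of the deposited values run on within each group, and the vehicle columns alone carry the suffix v1. The labels do not say what these stand for, so any difference in handling that they mark cannot be told apart from the treatment.

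Between genes, levels were compared per kilobase of the longest annotated transcript, in normalised counts per kilobase. In vehicle, *Ltb4r1* was far above the rest, at 7035 ± 69.9 (SD, n = 3), a level above 99.1% of all listed genes. *Ptgir* followed at 840 ± 36.9 per kilobase and *Ptger4* at 442 ± 25.0. *Alox5* at 155 ± 8.93 and *Ptger2* at 145 ± 6.03 did not differ beyond their spread. The synthase *Hpgds* was lower, at 66.9 ± 7.04 per kilobase. *Alox5ap* at 22.7 ± 1.21, *Ptgs1* at 14.5 ± 1.87 and *Ptgs2* at 12.7 ± 3.18 closed the order, and the last pair did not differ beyond its spread and changed places when the total exon length was used. Among the genes compared here, receptors were thus at higher levels than the enzymes and *Alox5ap*, except that *Ptger2* was near *Alox5*. The order was the same in melatonin, where the spread of *Alox5* at 318 ± 109 per kilobase overlapped that of *Ptger2* at 253 ± 53.8.

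**Figure D1:**
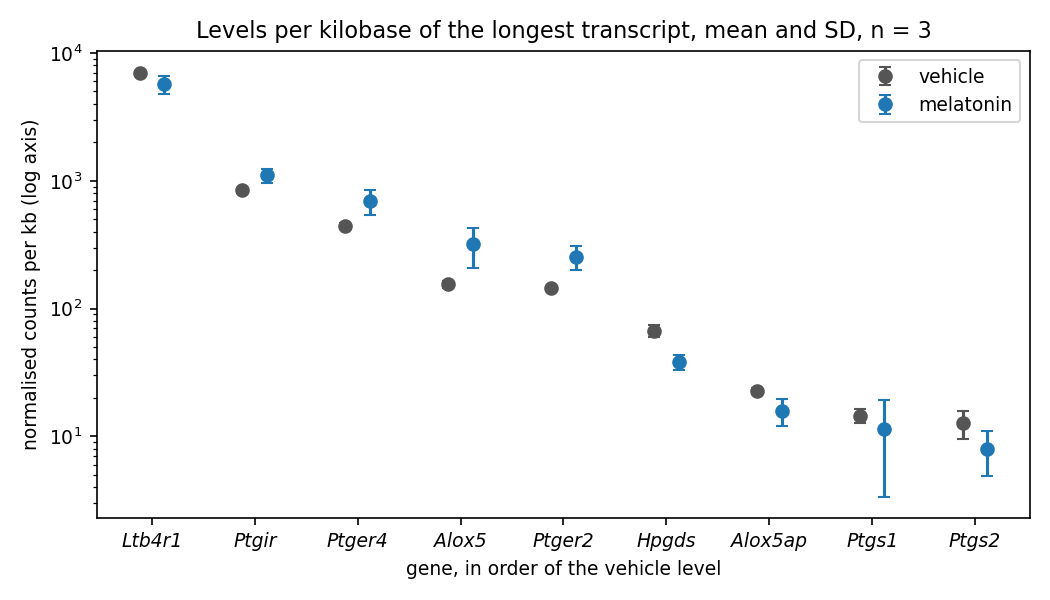
Level of each listed gene in normalised counts per kilobase of the longest transcript (log axis), as mean and SD of 3 samples, for vehicle (grey) and melatonin (blue), with genes in the order of the vehicle level. *Ltb4r1* is highest at 7035 per kilobase in vehicle, and *Ptgs1* and *Ptgs2* are lowest at 14.5 and 12.7. SDs smaller than the point are hidden by it.

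With melatonin, the prostacyclin receptor *Ptgir*, the prostaglandin E2 receptors *Ptger4* and *Ptger2* and the 5-lipoxygenase gene *Alox5* rose, and the prostaglandin D synthase *Hpgds* and the leukotriene B4 receptor *Ltb4r1* fell. *Ptgs1*, *Ptgs2* and *Alox5ap* were not called. Genes were called at an adjusted p-value under 0.05 from limma on the log2 of the normalised count plus 1, over the 14419 genes that reached 10 normalised counts in any sample, a scale that understates the change of low genes. Of the 9 genes, 4 were called higher, where 24.5% of all tested genes were higher, and 2 were called lower, where 24.7% of all tested genes were lower. In either direction, 6 of 9 genes were called, against 49.2% of all tested genes. The median size of the log2 fold change, sign aside, was 0.63 over the 9 genes and 0.45 over all tested genes. All 3 melatonin samples lay above all 3 vehicle samples for 4 genes, as for 30.0% of all tested genes, and below them for 4 genes, as for 30.3%. With 3 samples per group, 0.1 is the smallest two-sided p an exact permutation test can reach for one gene.

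**Figure D2:**
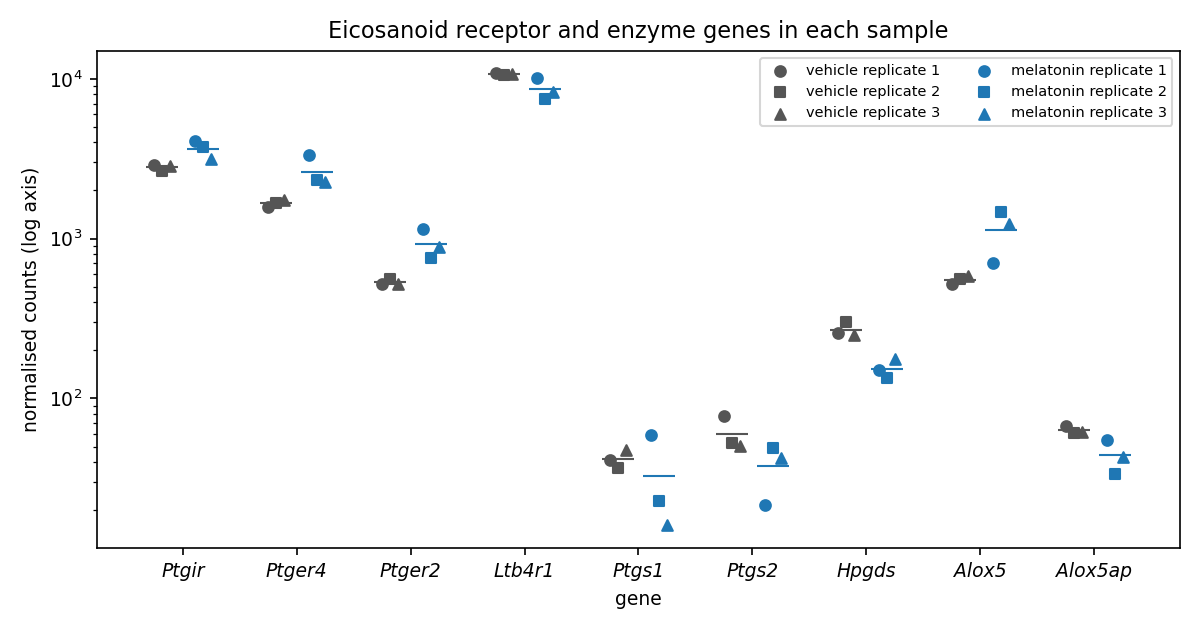
Normalised counts (log axis) of the 9 listed genes in each of the 6 samples, with vehicle in grey, melatonin in blue, the replicate number as the point shape and the group mean as a line. Melatonin samples lie above vehicle samples for *Ptgir*, *Ptger4*, *Ptger2* and *Alox5* and below them for *Ltb4r1*, *Ptgs2*, *Hpgds* and *Alox5ap*, while the groups overlap for *Ptgs1*.

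Among the receptors, *Ptger2* (ENSMUSG00000037759, chromosome 14, 45225652 to 45241277 in GRCm39) had the largest log2 fold change. It encodes EP2, a prostaglandin E2 receptor coupled to cyclic AMP production. It was at 523, 560 and 521 normalised counts in vehicle replicates 1, 2 and 3 and at 1148, 761 and 881 in melatonin replicates 1, 2 and 3. Every melatonin sample was above every vehicle sample, with replicate 1 the highest. The mean was 535 ± 22.2 (SD, n = 3) in vehicle and 930 ± 198 in melatonin (log2 fold change 0.78, SE 0.14, limma adjusted p = 0.00255).

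*Ptger4* (ENSMUSG00000039942, chromosome 15, 5236142 to 5273673) encodes EP4, the other prostaglandin E2 receptor of this type. Its values were 1568, 1676 and 1756 normalised counts in vehicle and 3312, 2310 and 2251 in melatonin. Again the groups did not overlap, and melatonin replicate 1 was the highest. The log2 fold change was 0.63 (SE 0.14, limma adjusted p = 0.00628). *Ptger4* overlaps *Ttc33* on the opposite strand, whose values were between 530 and 610 in vehicle and between 639 and 744 in melatonin, and reads of the shared stretch cannot be told apart without strand. *Ptger2* and *Ptger4* kept their calls in all 19 alternative fits with replicates in both groups, with log2 fold changes between 0.61 and 0.91 for *Ptger2* and between 0.45 and 0.73 for *Ptger4*. The log2 ratio of *Ptger4* to *Ptger2* within a sample was 1.64 ± 0.10 (SD, n = 3) in vehicle and 1.49 ± 0.13 in melatonin, and these values overlapped (exact permutation test, two-sided p = 0.3).

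*Ptgir* (ENSMUSG00000043017, chromosome 7, 16640415 to 16644848) encodes IP, the prostacyclin receptor, which also raises cyclic AMP. It was at 2882, 2655 and 2850 normalised counts in vehicle and at 4093, 3763 and 3130 in melatonin. The groups did not overlap, and melatonin replicate 3 was nearest to vehicle. The log2 fold change was 0.38 (SE 0.10, limma adjusted p = 0.0151), a smaller estimate than those of *Ptger2* and *Ptger4*. *Ptgir* was not called without vehicle replicate 2 (log2 fold change 0.34, limma adjusted p = 0.065), without melatonin replicate 2 (0.36, 0.0505) or without limma's trend (0.38, 0.0536).

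*Ltb4r1* (ENSMUSG00000046908, chromosome 14, 56003292 to 56005951) encodes BLT1, the high-affinity leukotriene B4 receptor. It was at 10814, 10603 and 10684 normalised counts in vehicle and at 10142, 7481 and 8316 in melatonin. The vehicle samples had a coefficient of variation of 0.994%, and melatonin replicate 1 was close below them. The log2 fold change was −0.32 (SE 0.11, limma adjusted p = 0.0372), from 10701 ± 106 (SD, n = 3) to 8646 ± 1361. Leaving out 1 sample kept this call only without melatonin replicate 1 (−0.44, limma adjusted p = 0.00082), and the other 5 such fits gave log2 fold changes between −0.33 and −0.22 that were not called. It was also not called with samples scaled to the same total, with quantile normalization or with a correction for transcript length, where the log2 fold change was −0.28, −0.17 and −0.15, nor without limma's trend (limma adjusted p = 0.0961). *Ltb4r1* lies inside the long non-coding RNA gene *Gm56758* on the same strand, which was not listed.

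The promoter windows of the 4 receptors that changed and of *Alox5* are printed because the receptors and *Alox5* carry most of the called changes. Each window holds 250 bases before and 50 after the transcription start, 5′ to 3′ on the strand of the gene, from RefSeq on GRCm38.p6, a different build from that of the gene positions above. Capitals mark matches, on either strand, to the core of NRF2 binding sites (TGACNNNGC) or to the NF-κB motif (GGG and CC with 5 bases between them). The cyclic AMP response element (TGACGTCA) was also searched, as were the E-box, AP-1 and GATA motifs. None of the windows printed here held the element or these motifs, given in letters below.
Ptger2, chr14:44987861-44988160, plus strand: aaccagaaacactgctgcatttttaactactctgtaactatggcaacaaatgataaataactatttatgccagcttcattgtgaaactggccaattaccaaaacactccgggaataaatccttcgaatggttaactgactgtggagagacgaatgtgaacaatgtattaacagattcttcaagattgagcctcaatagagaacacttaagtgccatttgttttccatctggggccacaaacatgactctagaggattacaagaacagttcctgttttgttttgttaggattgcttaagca
Ptger4, chr15:5244138-5244437, minus strand: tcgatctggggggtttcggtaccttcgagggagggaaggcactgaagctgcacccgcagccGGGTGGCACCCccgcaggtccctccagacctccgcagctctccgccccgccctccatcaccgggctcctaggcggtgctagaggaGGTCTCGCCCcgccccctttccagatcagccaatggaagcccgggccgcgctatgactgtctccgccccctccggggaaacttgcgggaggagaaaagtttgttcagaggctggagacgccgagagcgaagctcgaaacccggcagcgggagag
Ptgir, chr7:16906240-16906539, plus strand: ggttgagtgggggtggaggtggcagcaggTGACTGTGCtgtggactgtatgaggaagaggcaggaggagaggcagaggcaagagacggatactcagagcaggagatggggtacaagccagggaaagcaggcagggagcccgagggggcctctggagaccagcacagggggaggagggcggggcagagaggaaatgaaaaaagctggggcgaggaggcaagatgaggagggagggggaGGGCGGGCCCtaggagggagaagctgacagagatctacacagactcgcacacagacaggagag
Ltb4r1, chr14:55765712-55766011, plus strand: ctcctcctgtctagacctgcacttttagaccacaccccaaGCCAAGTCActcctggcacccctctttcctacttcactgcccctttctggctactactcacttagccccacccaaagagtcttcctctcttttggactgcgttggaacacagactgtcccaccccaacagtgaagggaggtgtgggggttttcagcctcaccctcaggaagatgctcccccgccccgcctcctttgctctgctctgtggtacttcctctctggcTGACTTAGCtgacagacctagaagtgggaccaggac
Alox5, chr6:116461129-116461428, minus strand: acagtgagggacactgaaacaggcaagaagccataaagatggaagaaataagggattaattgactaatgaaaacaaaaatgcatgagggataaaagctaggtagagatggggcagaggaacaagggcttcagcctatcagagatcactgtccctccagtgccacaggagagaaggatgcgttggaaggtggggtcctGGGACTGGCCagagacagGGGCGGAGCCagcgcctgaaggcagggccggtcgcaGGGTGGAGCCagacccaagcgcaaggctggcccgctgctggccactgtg
*Ptger2* held no match and was the poorest in G and C, at 37.7%. *Ptger4* was the richest, at 67.0% with 25 CpG pairs, and its capitals are 3 NF-κB matches, of which 2 overlap by all but 1 base. *Ptgir* held an NRF2 core match starting 221 bases and an NF-κB match starting 13 bases before the start site. *Ltb4r1* held 2 NRF2 core matches, starting 210 bases before and 15 bases into the transcript, and *Alox5* 3 NF-κB matches. Over 32851 RefSeq promoter windows of this length, the NF-κB letters occurred in 50.8% and the NRF2 core in 12.4%, and over the 9 windows found for the 10 genes they occurred in 5 and 2. The cyclic AMP response element was in 1.79% of all windows and in 0 of 9. The AP-1 letters TGANTCA were in 7.81% and 0 of 9. The GATA letters AGATAA were in 11.2% and 0 of 9. The E-box letters CACGTG were in 7.15% and in that of *Ptgs2* alone among the 9. The window of *Alox5ap* was not used here. These matches are letters in a window, and binding was not measured.

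In the cyclooxygenase branch, 1 of 3 enzymes was called, the last of the sequence. *Hpgds* (ENSMUSG00000029919, chromosome 6, 65094001 to 65121983) encodes hematopoietic prostaglandin D synthase, which makes prostaglandin D2. It was at 258, 301 and 248 normalised counts in vehicle and at 151, 133 and 176 in melatonin. All melatonin samples were below all vehicle samples, and melatonin replicate 1 lay between the other two. The mean fell from 269 ± 28.2 (SD, n = 3) to 154 ± 21.4, or 57.1% of vehicle (log2 fold change −0.81, SE 0.15, limma adjusted p = 0.00294). *Hpgds* was called lower in all 19 such fits, with log2 fold changes between −1.02 and −0.71. Mast cells and eosinophils can also hold this enzyme, although the sort was set to remove cells with FcεRIα or CD11b. The mast cell protease gene *Tpsab1* fell from a mean of 1245 to 399 (log2 fold change −1.81, limma adjusted p = 0.00463), while *Kit* had a mean of 1689 in vehicle and 3552 in melatonin (log2 fold change 0.92, limma adjusted p = 0.036, called in 3 of 6 fits with a sample left out, and at 0.48 without melatonin replicate 1) and *Cpa3* was near the floor in both groups, at 8.71 and 14.6 (limma adjusted p = 0.957). The eosinophil marker *Ccr3* was lower, as given above. Their part in the *Hpgds* result was not tested.

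The cyclooxygenases were at low levels, with no more than 83.0 estimated counts in any sample. The spread among the melatonin samples was wide for *Ptgs1*, with a coefficient of variation of 70.4% against 12.87% in vehicle. *Ptgs1* (ENSMUSG00000047250, chromosome 2, 36120438 to 36142287), the constitutive cyclooxygenase, was at 41.1, 36.5 and 47.2 normalised counts in vehicle and at 58.8, 22.9 and 16.1 in melatonin. Melatonin replicate 1 was above, and replicates 2 and 3 below, all vehicle samples. The log2 fold change was −0.55 (95% interval −1.54 to 0.45, limma adjusted p = 0.325), and without melatonin replicate 1 it was −1.07 (limma adjusted p = 0.0184) and without melatonin replicate 3 it was −0.16 (limma adjusted p = 0.761).

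*Ptgs2* (ENSMUSG00000032487, chromosome 1, 149975194 to 149983978), the inducible cyclooxygenase, was at 77.5, 52.5 and 50.4 normalised counts in vehicle and at 21.5, 49.2 and 42.2 in melatonin. The groups did not overlap, but melatonin replicate 2 was only just below vehicle replicate 3. The log2 fold change was −0.71 (95% interval −1.49 to 0.06, limma adjusted p = 0.114), and without melatonin replicate 1 it was −0.36. Within a sample, the log2 ratio of *Ptgs2* to *Ptgs1*, in counts not divided by length, was 0.90, 0.51 and 0.09 in vehicle and −1.41, 1.07 and 1.34 in melatonin (exact permutation test, two-sided p = 1). Per kilobase, *Ptgs1* was above *Ptgs2* in vehicle replicates 2 and 3 and in melatonin replicate 1, where the difference was widest at 20.5 against 4.53, and below it in the other 3 samples. The log2 ratio of *Hpgds* to *Ptgs1* overlapped as well, at 2.66 ± 0.32 (SD, n = 3) in vehicle and 2.40 ± 1.02 in melatonin (exact permutation test, two-sided p = 0.8).

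In the leukotriene branch, the gene of the enzyme was called and that of its partner was not. *Alox5* (ENSMUSG00000025701, chromosome 6, 116387032 to 116438139) encodes 5-lipoxygenase. It was at 519, 557 and 582 normalised counts in vehicle and at 705, 1466 and 1237 in melatonin. Every melatonin sample was above every vehicle sample, and replicate 1 was nearest to vehicle. The mean rose from 553 ± 31.9 (SD, n = 3) to 1136 ± 391, 2.06-fold (log2 fold change 0.97, SE 0.23, limma adjusted p = 0.00801). It was called higher in all 19 fits with replicates, between 0.76 and 1.28 on the log2 scale. With only the libraries that hold Y-linked transcripts, where melatonin replicate 1 is the only treated sample, the log2 fold change of *Alox5* was 0.35.

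*Alox5ap* (ENSMUSG00000060063, chromosome 5, 149196003 to 149227762) encodes FLAP, which presents arachidonic acid to 5-lipoxygenase. Its values were 67.2, 60.9 and 61.9 normalised counts in vehicle and 55.1, 33.9 and 43.2 in melatonin. All melatonin samples were below all vehicle samples, but the gene was not called, with a log2 fold change of −0.54 (95% interval −1.09 to 0.01, limma adjusted p = 0.0936). It was called without melatonin replicate 1 (−0.71, limma adjusted p = 0.0316) and with sample weights (−0.69, limma adjusted p = 0.0235). Macrophages, which the sort on CD11b and CD11c was set to remove, are rich in FLAP, and their marker *Lyz2* had a mean of 996 in vehicle and 487 in melatonin, where it was lowest in replicate 1 at 252. Its part in the *Alox5ap* values was not tested. The log2 ratio of *Alox5ap* to *Alox5* within a sample was −2.93, −3.17 and −3.21 in vehicle and −3.65, −5.39 and −4.81 in melatonin. These values did not overlap, with a difference of −1.51 between the means (exact permutation test, two-sided p = 0.1, the smallest it can give). The difference was −0.55 with only the libraries that hold Y-linked transcripts.

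**Figure D3:**
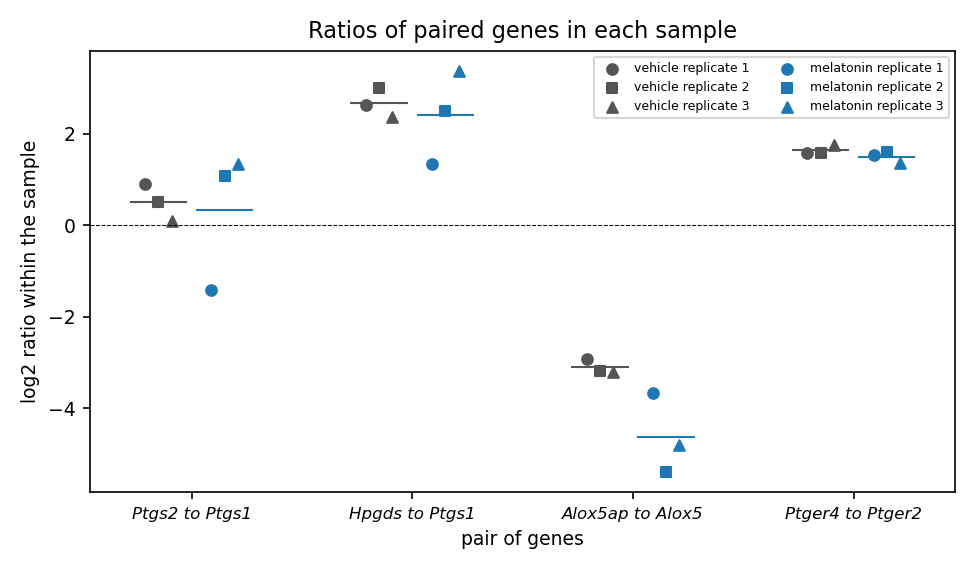
Log2 ratio of paired genes within each sample, with vehicle in grey, melatonin in blue, the replicate number as the point shape and the group mean as a line. For *Alox5ap* to *Alox5* the melatonin samples, between −5.39 and −3.65, lie below the vehicle samples, and for the other 3 pairs the groups overlap.

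**Figure D4:**
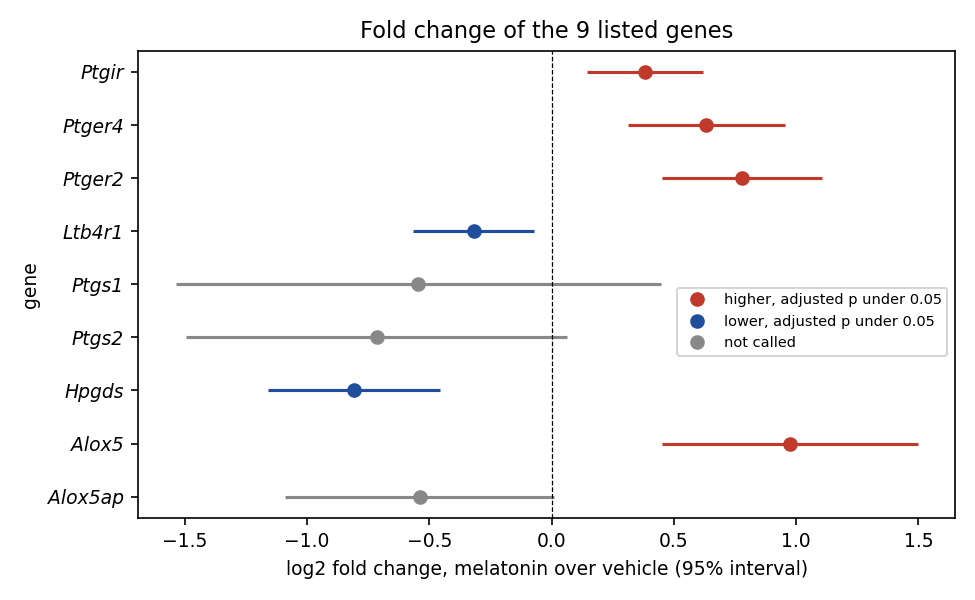
Log2 fold change of melatonin over vehicle for the 9 listed genes, as the limma estimate with its 95% interval from 3 samples per group. The intervals of *Ptgir*, *Ptger4*, *Ptger2* and *Alox5* lie above 0, those of *Ltb4r1* and *Hpgds* lie below 0, and those of *Ptgs1*, *Ptgs2* and *Alox5ap* take in 0.

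The melatonin samples varied more than the vehicle samples. The coefficient of variation was larger in melatonin for all 9 genes, as it was for 69.5% of all tested genes. Melatonin replicate 1 was the highest or lowest of its group for 8 of 9 genes, *Hpgds* being the exception, as it was for 74.9% of all tested genes. Relative to replicates 2 and 3, it had higher *Ptger2*, *Ptger4*, *Ptgir*, *Ltb4r1*, *Ptgs1* and *Alox5ap* and lower *Alox5* and *Ptgs2*. The difference of melatonin replicate 1 alone from the 3 vehicle samples, the libraries with Y-linked transcripts, is given as a value with no call, since 1 treated sample has no spread of its own. It gave log2 fold changes of 1.10 for *Ptger2*, 0.99 for *Ptger4*, 0.55 for *Ptgir*, 0.35 for *Alox5*, −0.82 for *Hpgds* and −1.41 for *Ptgs2*. In the same comparison *Ltb4r1* was at −0.08, *Alox5ap* at −0.20 and *Ptgs1* at 0.50.

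The other genes of eicosanoid metabolism were taken as 7 lists with 59 genes in all. Of these, 38 were listed with a value, 36 had enough counts to be tested, 6 rose and 9 fell. These are 16.7% and 25.0% of the tested genes, beside 24.5% and 24.7% of all tested genes. Upstream, of 8 tested phospholipases, which release arachidonic acid, 1 rose and 2 fell. *Pla2g4a*, the cytosolic phospholipase A2 that prefers arachidonic acid, rose from 96.1 ± 9.97 (SD, n = 3) to 176 ± 27.5 normalised counts, a log2 fold change of 0.86 (limma adjusted p = 0.00411). *Pla2g12a*, a secreted phospholipase, fell from 1332 ± 226 to 779 ± 118, by 0.77 on the log2 scale (limma adjusted p = 0.00339). *Plaat3*, an acyltransferase with phospholipase activity, was not called at 0.16 (95% interval −0.10 to 0.41), but was called without melatonin replicate 2 (0.28, limma adjusted p = 0.0373).

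**Figure D5:**
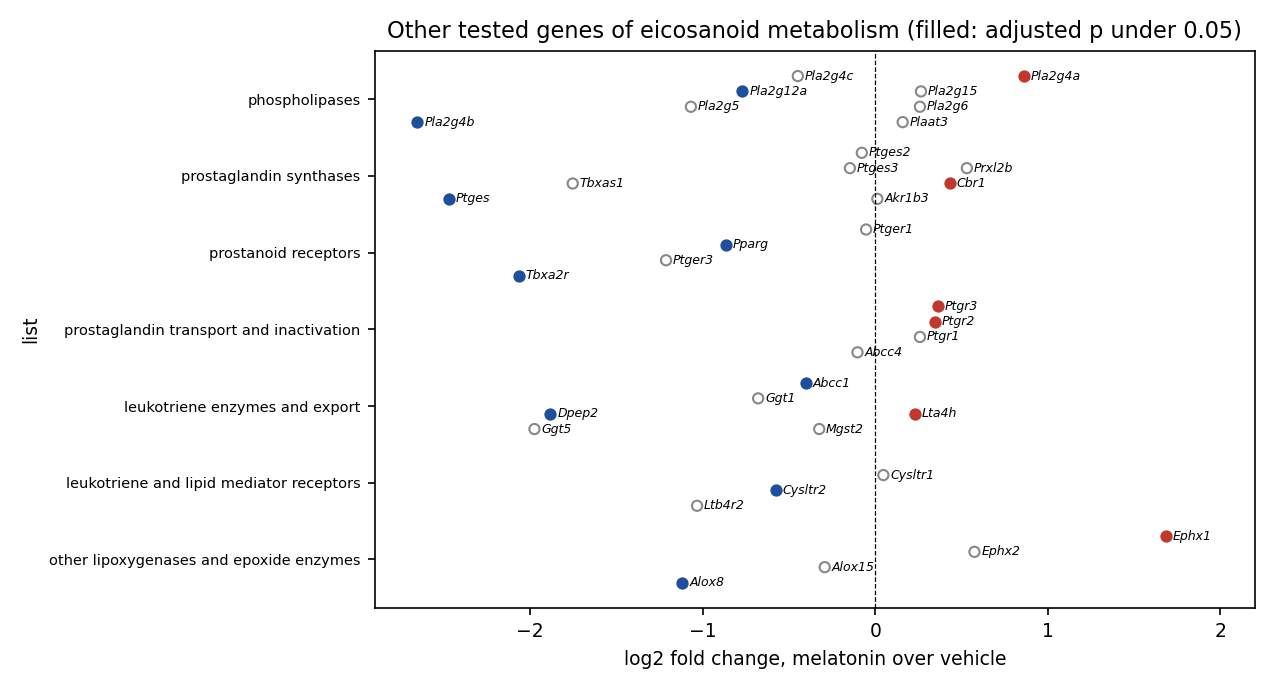
Log2 fold change of melatonin over vehicle for the 36 other tested genes of eicosanoid metabolism, by list, with filled points for an adjusted p under 0.05 (red higher, blue lower) and open points for genes not called. Above the floor, called values run from *Ptges* at −2.47 to *Ephx1* at 1.68. *Pla2g4b*, farthest to the left, had a mean of 0.364 in melatonin.

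Of 7 tested prostaglandin synthases, 1 rose and 1 fell. *Cbr1*, a carbonyl reductase that converts prostaglandin E2, rose by a log2 fold change of 0.43 (limma adjusted p = 0.0113), although it was not called without vehicle replicate 2 (0.38, limma adjusted p = 0.0527). *Ptges*, the inducible prostaglandin E synthase, fell from 162, 126 and 137 normalised counts to 40.2, 22.9 and 16.1. Its log2 fold change was −2.47 (limma adjusted p = 0.000446), and it is named here after its values were seen, since its mean was below 100. The abundant *Ptges3*, a co-chaperone also known as cytosolic prostaglandin E synthase, was at −0.15 (95% interval −0.33 to 0.04), and *Akr1b3*, an aldose reductase with prostaglandin F synthase activity, was at 0.01 (95% interval −0.18 to 0.21). Neither was called, but with a correction for GC content *Ptges3* was called lower at −0.33 (limma adjusted p = 0.00862).

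Of the other prostanoid receptors, 4 were tested and 2 fell. *Pparg*, a nuclear receptor that binds lipids including a prostaglandin D2 metabolite, was the most abundant of them and fell from 5424 ± 306 (SD, n = 3) to 2979 ± 177 normalised counts, by 0.86 on the log2 scale (limma adjusted p = 0.000104). The thromboxane receptor *Tbxa2r* fell from a mean of 32.9 to 7.37. The remaining prostaglandin E2 receptors were low and not called, *Ptger3* at a mean of 11.7 in vehicle and 4.61 in melatonin (log2 fold change −1.21, limma adjusted p = 0.0522) and *Ptger1* at a log2 fold change of −0.05. *Ptger3* was called lower in some alternative fits, among them 1 of 6 with a sample left out. With a sample left out, *Ptger1* ran from −0.412 to 0.215. The second receptor for prostaglandin D2, *Ptgdr*, was not among the listed genes and was not analysed here. Of 4 tested genes of prostaglandin transport and inactivation, 2 rose. *Ptgr2* and *Ptgr3*, reductases of prostaglandin breakdown, had log2 fold changes of 0.34 and 0.36 (limma adjusted p = 0.00874 and 0.0082). After a correction for transcript length they were at 0.10 and 0.14 and were not called, nor was *Ptgr2* after one for GC content (0.16).

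Around the leukotrienes, 1 of 6 tested enzymes and exporters rose and 2 fell. *Lta4h*, which makes leukotriene B4, rose from 2341 ± 37.4 (SD, n = 3) to 2755 ± 223 normalised counts, a log2 fold change of 0.23 (limma adjusted p = 0.0427). That call held in 9 of 19 such fits, and leaving out 1 sample kept it only without melatonin replicate 1. *Abcc1*, an exporter of leukotriene C4, had a log2 fold change of −0.40 (limma adjusted p = 0.0261) and was not called without vehicle replicate 1 (−0.38, limma adjusted p = 0.0779) or vehicle replicate 3 (−0.36, limma adjusted p = 0.0871), or without the trend (limma adjusted p = 0.072). Without melatonin replicate 1, *Abcc1* was called at −0.264 (limma adjusted p = 0.0312). The leukotriene C4 synthase gene *Ltc4s* was not analysed here, since it was not among the listed genes. Of 3 other tested receptors of leukotrienes and related mediators, 1 fell. *Cysltr1*, on the X chromosome, was at 6313 ± 612 in vehicle and 6501 ± 71.3 in melatonin and was not called (log2 fold change 0.05, 95% interval −0.15 to 0.24). *Cysltr2* fell from 674 ± 39.9 to 451 ± 13.3, by 0.58 on the log2 scale (limma adjusted p = 0.00142), a call kept in all 19 such fits. Of 4 remaining lipoxygenases and epoxide enzymes, 1 fell and 1 rose. The lipoxygenase *Alox8* fell from a mean of 81.5 to 36.8, and *Ephx1*, the microsomal epoxide hydrolase, rose from 38.5 to 127. *Tbxa2r*, *Ptger1*, *Ptger3*, *Alox8*, *Ephx1* and the remaining lower genes, *Pla2g4b* and the leukotriene D4 dipeptidase *Dpep2* (−1.88), were likewise named after their values were seen. *Dpep2* was low, at a mean of 14.4 in vehicle and near the floor at 3.03 in melatonin. *Pla2g4b* was near the floor, at a mean of 7.87 in vehicle and at 0 in 2 melatonin samples, and its log2 fold change ran from −4.94 to −0.76 over the alternative fits.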

How the data were processed

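RNA of 3 melatonin and 3 vehicle samples was amplified with a SMARTer kit, which does not mark strand, and sequenced. In Partek Flow 12.9.0, the authors trimmed reads by quality, aligned them to mm39 (STAR 2.7.8a) and assigned them to Gencode M33 by expectation maximization. The deposited signal values are estimated counts over the size factor of the sample, called normalised counts here. The value of one read was found from their spacing. At a tolerance of 0.01, between 72.0% and 73.6% of values under 60 were whole multiples of it, and the algorithm divides reads, so whole reads were not recovered, and the DESeq2 test that the study's methods name was not run. The 16381 identifiers were named with release M39 of the annotation (GRCm39, the build of the authors), which matched 16334.

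Groups were compared with limma 3.58.1 in R 4.3.3 (mean-variance trend, treatment as the only term, pseudocount of 1) for the 14419 genes reaching 10 in any sample, with Benjamini-Hochberg adjustment. The script was tested on simulated data. Depth was between 17056266 and 20511709 estimated counts, which sets the precision of low genes, and the sources used here name no molecular identifiers. Replicates of a group differed by more than counting noise. Of the other eicosanoid genes, each list's largest called rise and fall with a mean of at least 100 and genes with a mean of at least 1000 were named. The genes and lists were chosen with earlier results of these data known, and the comparison of libraries with Y-linked transcripts was added after seeing the data. Tables were made with pandas 2.3.3 and numpy 2.4.6 and figures with matplotlib 3.10.9.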

Additional observations from a re-analysis of the deposited data

How the results depend on the processing

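The alternatives were pseudocounts of 0.1 and 10, no filter or a minimum mean of 100, scaling to the same total or upper quartile, quantile normalization, no limma trend, sample weights, a replicate block, corrections for GC content and transcript length, voom on the estimated counts, each sample left out, and only the libraries with Y-linked transcripts. Of the 9 genes, 4 were higher in 16 of the 19 fits with replicates in both groups and 3 in the other 3. The 2 lower genes became 1 with the same total, quantile normalization, no trend or the length correction, 3 with sample weights, and between 1 and 4 when a sample was left out, with 4 without melatonin replicate 1. The other eicosanoid genes called higher went from 6 to 3 with the length correction, and those called lower from 9 to 4 under the minimum mean of 100, which tests fewer genes. Over all genes, between 2630 and 3863 were called higher and between 2667 and 4217 lower. The same-numbered samples did not deviate together (correlations −0.05, 0.01 and −0.05), which gave no sign that the numbers pair them. With so few samples this cannot exclude a pairing. With the replicate block, 4 of the 9 genes were higher and 2 lower, as without it, and *Lta4h* was not called (limma adjusted p = 0.063).

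With only the libraries that hold Y-linked transcripts, *Ptgs1* turned positive (0.50), and the differences in log2 ratio were −1.91 for *Ptgs2* to *Ptgs1*, −1.32 for *Hpgds* to *Ptgs1* and −0.55 for *Alox5ap* to *Alox5*. With the length correction, the called rise of *Lta4h* (0.23) was lost and turned to −0.004. Uncalled values near 0 also changed sign. *Plaat3* was at −0.071 with that correction. *Ptger1* was between −0.412 and 0.215 with a sample left out. *Cysltr1* was at −0.003 with the upper quartile and at −0.055 and −0.19 with the GC and length corrections, and with a sample left out between −0.019 and 0.12. *Akr1b3* was at −0.038 with the upper quartile, −0.009 with quantile normalization, −0.027 with sample weights and −0.071 and −0.221 with the GC and length corrections, and with a sample left out between −0.031 and 0.081. The cause was not tested. *Ptgs1* was at 16.0 to 63.0 estimated counts per sample, and changes inside its interval could not be detected with these samples.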

Other observations

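Genes around the supply of arachidonic acid and its return to membranes were examined as an added list of 16 genes, chosen by function after the results above were known. The list also takes in neighbouring steps of fatty acid elongation and phospholipid acylation that are not particular to arachidonic acid. With limma, 11 of the 16 rose and 0 fell at an adjusted p under 0.05, beside 24.5% and 24.7% of all tested genes, and at an unadjusted p under 0.05, 1 was lower. voom called 10 higher and 0 lower. *Faah*, which hydrolyses arachidonoylethanolamide, rose from 1307 ± 66.8 (SD, n = 3) to 3108 ± 392.2 normalised counts, a log2 fold change of 1.24 (limma adjusted p = 6.4e-05). *Acsl4*, an X-linked gene whose product activates arachidonic acid to its CoA ester, rose from 2397 ± 51.9 to 4110 ± 354, a log2 fold change of 0.77 (limma adjusted p = 0.000207). *Acsl3*, another acyl-CoA synthetase, rose from 742 to 1362, a log2 fold change of 0.87 (limma adjusted p = 0.000209). *Elovl5*, an elongase, and *Fads1*, the desaturase that forms arachidonic acid, had log2 fold changes of 0.55 and 0.33. *Fads1* was called in all 6 fits with a sample left out but not in every alternative fit, and its lowest value was 0.171. The acyltransferases *Lpcat1* and *Lpcat3*, of which the latter places arachidonic acid in phospholipids, were at 0.48 and 0.24. The call of *Lpcat3* held in 2 of 6 fits with a sample left out and was also lost in some other alternatives. Its value turned to −0.005 with the correction for transcript length. *Mboat7* at −0.16 (limma adjusted p = 0.284) and *Abhd12* at 0.17 (limma adjusted p = 0.114) were not called. With a sample left out, *Mboat7* was between −0.303 and −0.088 and was called lower in 1 of 6 fits. *Abhd12* ran from −0.075 to 0.216 over the alternative fits. The number called higher was between 8 and 11 with each sample left out, and 7 with the correction for transcript length, where 2 were lower. In the other alternatives at most 1 was lower.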
